A study of Mus musculus with 6 samples.

Results

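Messenger RNA of 10 early-response genes was measured in alveolar macrophages, which patrol the air spaces of the lung and clear surfactant, dust and microbes. The genes were taken by symbol: the orphan nuclear receptors Nr4a1, Nr4a2 and Nr4a3, the immediate-early response genes Ier2, Ier3 and Ier5, the dual-specificity phosphatases Dusp1, Dusp2 and Dusp5, and Zfp36. All 10 were found among the 18392 genes of the table, and all 10 averaged 1 FPKM or more, the level required for testing. The knockout group consisted of 3 libraries from Cd11c-CreHdac3fl/fl mice, which carry floxed Hdac3 alleles and a Cre recombinase driven by the Cd11c (Itgax) promoter. The control group consisted of 3 libraries from Hdac3fl/fl mice, for which no Cre is named. All mice were C57BL/6 animals, 6 weeks old, and the cells were sorted from digested lungs. The floxed alleles are shared by both groups, while the Cre transgene is named for the knockouts alone, so its effect and that of Hdac3 loss cannot be told apart. The Cd11c promoter is also active in dendritic cells, and no label ties a library to its own mouse, so the spread behind each p-value may be technical.

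Early-response genes are transcribed within minutes of a stimulus from promoters that are already accessible, and their messengers are short-lived. NR4A proteins are nuclear receptors without a known physiological ligand whose activity is set largely by how much of them is made. DUSP phosphatases remove phosphate from MAP kinases, and tristetraprolin (TTP, encoded by Zfp36) binds AU-rich elements in 3′ untranslated regions and speeds the decay of cytokine messengers, so both act as brakes on the signals that induce them. The Hdac3 enzyme removes acetyl groups from histones within the NCoR and SMRT corepressor complexes.

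Hdac3 itself (Entrez 15183) read 4.36, 5.05 and 3.97 FPKM in knockout libraries, against 17.7, 19.9 and 16.9 FPKM in control libraries (log2 change -1.81, SE 0.09; limma adjusted p = 6.8e-07). FPKM, the unit of the values the authors deposited, are fragments scaled to transcript length and to library size, so levels can be compared between genes. The number of reads behind a value is unknown. Between 10393 and 10434 genes reached 1 FPKM in a knockout library and between 10938 and 11077 in a control library. The alveolar macrophage markers fixed for the check (Siglecf, Itgax, Marco, Chil3, Car4, Pparg, Fabp4, Mrc1, Cd68 and Fabp1) were present in every library. Their summed level was 22941 to 29655 FPKM in knockouts and 14790 to 16905 FPKM in controls. All knockout values lay above all control values for 5 of them (Itgax, Chil3, Car4, Mrc1 and Cd68) and below for 3 (Marco, Pparg and Fabp1), while Siglecf and Fabp4 overlapped.

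Of the 10 genes, 8 were lower in knockouts (Nr4a1, Nr4a2, Nr4a3, Ier2, Ier3, Ier5, Dusp1 and Zfp36), 1 was higher (Dusp5) and 1 was not called (Dusp2), at an adjusted p under 0.05 by limma on log2(FPKM + 1). The background was wide, since 58.8% of the 10847 tested genes were called lower and 11.0% higher. With libraries rescaled to a common centre (TMM, the trimmed mean of M values), which moved the median log2 change of all tested genes by 0.31, the counts were 7 lower and 1 higher, beside 27.4% and 28.5% of tested genes. The median log2 change of the 10 genes was -1.88 as deposited, beside -0.31 for all tested genes, and -1.53 after TMM scaling, beside 0.00. The knockout values of 9 genes lay below all control values, as did those of 62.4% of tested genes, and those of Dusp5 lay above, as did those of 12.1%. A log2 change below -1 was reached by 8 of the 10 genes and by 8.28% of tested genes. A bulk library cannot tell fewer expressing cells from less RNA per cell.

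**Figure D1:**
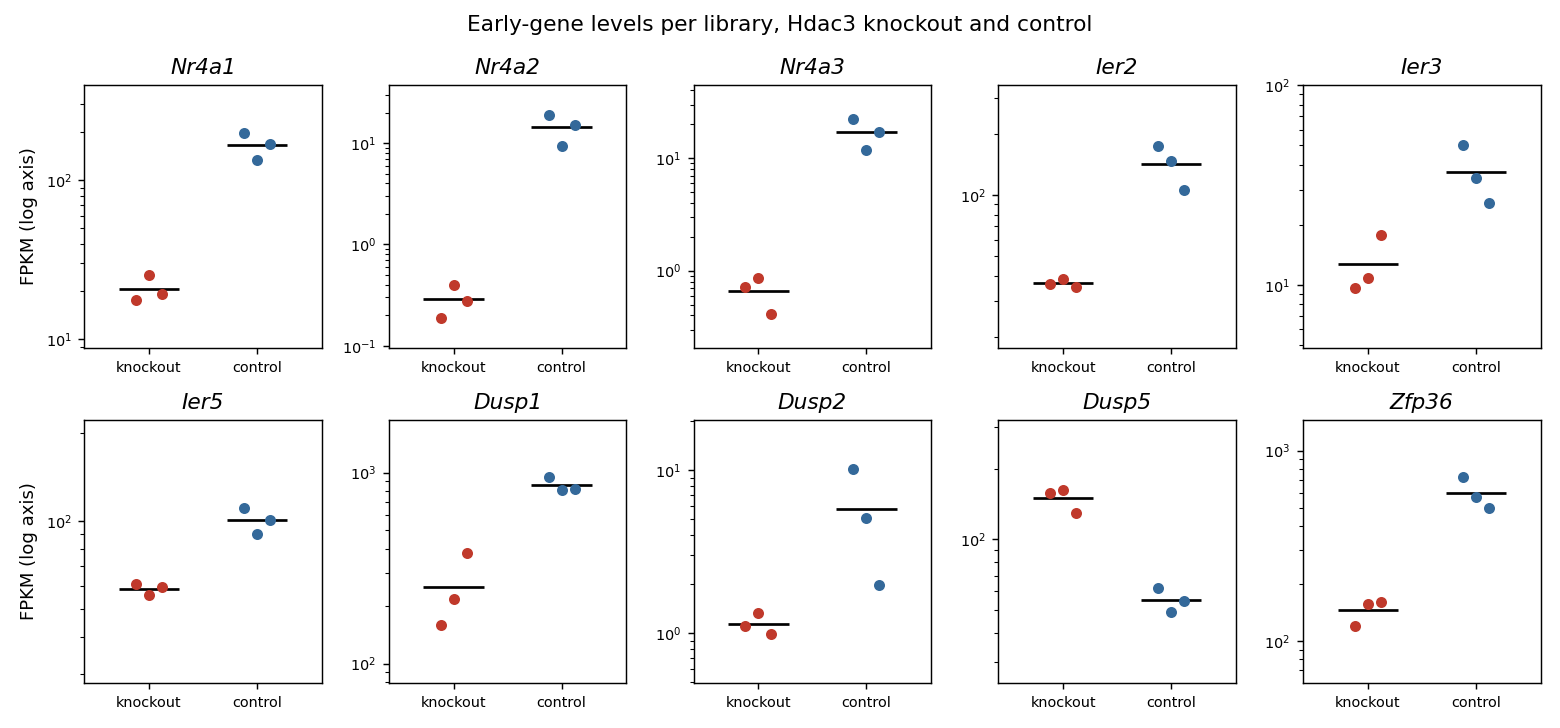
FPKM of each of the 10 early genes in every library, on log axes that differ in range between panels. Red points are the 3 knockout libraries, blue points the 3 control libraries, and black bars the group means. The groups do not overlap in any panel, and Dusp5 is the panel with knockouts above controls.

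The 3 nuclear receptors fell furthest. Nr4a1, also called Nur77 and known in mice for its part in the development of patrolling monocytes, read 17.6, 25.4 and 19.1 FPKM in knockout libraries, against 199, 135 and 168 FPKM in control libraries. The knockout mean was 12.4% of the control mean (log2 change -2.95, SE 0.19; limma adjusted p = 3.6e-05; -2.60 after TMM scaling). Nr4a2, known as Nurr1 from its role in dopaminergic neurons, read 0.19, 0.40 and 0.28 FPKM in knockout libraries, against 18.7, 9.31 and 15.1 FPKM in control libraries. All 3 knockout values were under 1 FPKM, and their mean was 2.01% of the control mean (log2 change -3.53, SE 0.23; limma adjusted p = 2.2e-05; after TMM scaling -3.32). Nr4a3, known as NOR1, read 0.72, 0.86 and 0.41 FPKM in knockout libraries, against 22.4, 11.8 and 17.1 FPKM in control libraries. Its knockout mean was 3.88% of the control mean (log2 change -3.41, SE 0.23; limma adjusted p = 3.0e-05; -3.17 after TMM scaling). Counted from the lowest log2 change among the 10847 tested genes, Nr4a2 was number 15, Nr4a3 number 18 and Nr4a1 number 39. Because 1 FPKM was added before taking logs, the changes of Nr4a2 and Nr4a3 are understated, and with 0.1 FPKM added they were -5.19 and -4.50. The places in the ranking depend on this value too. With 0.1 FPKM added Nr4a2 was number 8, Nr4a3 number 25 and Nr4a1 number 119.

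Nr4a1 made up most of the NR4A messenger in both groups, and its share was larger in knockouts. It held 95.1%, 95.3% and 96.5% of the summed NR4A FPKM in knockout libraries, against 82.9%, 86.5% and 83.9% in control libraries. The fall of Nr4a1 was smaller than that of Nr4a2 by 0.58 (SE 0.15) on the log2(FPKM + 1) scale and smaller than that of Nr4a3 by 0.46 (SE 0.16). Each of these differences separated the 3 knockout from the 3 control libraries, at an exact two-sided permutation p = 0.10, the smallest that 3 against 3 can give, and an adjusted p = 0.18 over the 9 pairs compared within families. With 0.1 FPKM added the differences were 2.19 and 1.49. The change of Nr4a2 minus that of Nr4a3 was -0.12 (SE 0.12; exact permutation p = 0.50).

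The NR4A genes lie on different chromosomes. Nr4a1 (Entrez 15370) spans 101253902 to 101274795 on chromosome 15, Nr4a2 (Entrez 18227) spans 57106830 to 57124003 on chromosome 2, and Nr4a3 (Entrez 18124) spans 48045078 to 48086447 on chromosome 4, all in GRCm38.p6, whose coordinates are those of mm10. The annotated span of another gene, LOC105244150, overlaps that of Nr4a2, and reads of the overlap cannot be assigned without strand information, which is not given in the sources used here. Of the 10 genes, 9 had an entry in the RefSeq promoter table, the exception being Ier2. Each NR4A promoter, taken from 250 bases before to 50 bases after the listed start, held 4 copies of TGACG, the core of the cAMP response element (CRE) that CREB family factors bind, counted on both strands. Such a count was reached by 0.231% of the 32851 promoters of that length, and at least 1 copy by 20.8%. The 250 bases before the start are shown for the pair of genes at the extremes of the NR4A levels, with TGACG, or CGTCA for the other strand, in capitals. Nr4a1 is at chr15:101266596-101266845 on the plus strand and Nr4a2 at chr2:57124004-57124253 on the minus strand. The listed start of Nr4a1 thus lies inside its annotated span, which begins at 101253902, and the sequence before that position was not examined. The listed start of Nr4a3 lies inside its span as well. Its 250 bases are at chr4:48045055-48045304 on the plus strand, while its span begins at 48045078.

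Nr4a1: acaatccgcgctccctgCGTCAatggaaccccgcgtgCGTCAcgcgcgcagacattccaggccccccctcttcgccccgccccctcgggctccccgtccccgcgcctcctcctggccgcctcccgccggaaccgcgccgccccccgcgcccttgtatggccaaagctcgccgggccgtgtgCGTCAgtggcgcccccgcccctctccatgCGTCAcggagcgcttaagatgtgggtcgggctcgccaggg

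Nr4a2: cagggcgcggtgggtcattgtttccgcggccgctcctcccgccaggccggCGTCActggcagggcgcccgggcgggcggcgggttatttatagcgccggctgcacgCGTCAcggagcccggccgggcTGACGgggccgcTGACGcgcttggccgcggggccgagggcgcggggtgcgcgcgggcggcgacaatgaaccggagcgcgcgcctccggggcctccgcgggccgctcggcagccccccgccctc

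Counting the base before the start as -1, the copies begin at -233, -213, -69 and -40 in Nr4a1, at -200, -144, -123 and -111 in Nr4a2, and at -231, -213, -205 and -147 in Nr4a3. The printed sequences of Nr4a1 and Nr4a2 hold 74.4% and 80% G and C, where the median over all promoters was 52.4%, and the shares of promoters given here were not matched for this. The NR4A monomer element AAAGGTCA was found in none of the 9 promoters and in 1.51% of all promoters. A match in these letters is a description of sequence and does not show that a factor was bound.

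All 3 IER genes were lower in knockouts as deposited. Ier2, which encodes a nuclear protein induced by growth factors, read 36.2, 38.5 and 35.1 FPKM in knockout libraries, against 175, 146 and 106 FPKM in control libraries. The knockout libraries lay close together and the control libraries did not, and Ier2 fell (log2 change -1.90, SE 0.18; limma adjusted p = 1.6e-04; -1.55 after TMM scaling). Ier5, whose product binds protein phosphatase 2A, read 60.8, 55.9 and 59.6 FPKM in knockout libraries, against 111, 90.6 and 101 FPKM in control libraries. Its knockout mean was 58.2% of the control mean, the smallest fall among the 8 genes called lower (log2 change -0.77, SE 0.08; limma adjusted p = 3.4e-05; -0.41 after TMM scaling). Relative to the median of all tested genes the change of Ier5 was -0.46, and 15% of tested genes had a lower log2 change. Ier3, also called IEX-1 and known as a stress-induced modulator of cell survival, read 9.63, 10.8 and 17.8 FPKM in knockout libraries, against 50.3, 34.1 and 25.6 FPKM in control libraries. The groups did not overlap, but knockout library 3 came near control library 3. Ier3 was called lower (log2 change -1.45, SE 0.35; limma adjusted p = 0.016), but the call was lost with TMM scaling (-1.11; limma adjusted p = 0.051), without knockout library 2 (-1.36; limma adjusted p = 0.059) and without control library 2 (-1.47; limma adjusted p = 0.051). The change of Ier2 minus that of Ier5 was -1.14 (SE 0.21; exact permutation p = 0.10, adjusted p = 0.18), and Ier2 lay below Ier5 in every knockout library and above it in every control library. The difference was -0.45 (SE 0.29) for Ier2 minus Ier3 and -0.68 (SE 0.35) for Ier3 minus Ier5, each at an exact permutation p = 0.20. Ier2 (Entrez 15936) lies at 84661331 to 84662852 on chromosome 8, Ier3 (Entrez 15937) at 35821713 to 35822911 on chromosome 17 and Ier5 (Entrez 15939) at 155096367 to 155099636 on chromosome 1.

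Among the DUSP genes, Dusp1 fell and Dusp5 rose. Dusp1 encodes MKP-1, a nuclear phosphatase of p38, JNK and ERK that limits cytokine production in mouse macrophages. It read 159, 217 and 379 FPKM in knockout libraries, against 947, 811 and 824 FPKM in control libraries. The 3 knockout libraries were spread widely, and their mean was 29.2% of the control mean (log2 change -1.86, SE 0.35; limma adjusted p = 0.0067; -1.5 after TMM scaling). Leaving out 1 library at a time gave log2 changes between -2.20 and -1.58, all called. Dusp2 encodes PAC-1, a phosphatase first described in activated lymphocytes. It read 1.11, 1.32 and 0.99 FPKM in knockout libraries, against 10.2, 5.09 and 1.96 FPKM in control libraries. Every knockout value lay below every control value, but the controls spanned a wide range, and the change was not called (log2 change -1.46, SE 0.52; limma adjusted p = 0.057). It was called without control library 3 (-1.95; limma adjusted p = 0.0016) and without control library 1 (-0.99; limma adjusted p = 0.038), and also with 0.1 FPKM added (-1.96; limma adjusted p = 0.039).

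Dusp5 was the exception among the 10 genes. It encodes a nuclear phosphatase that acts on ERK rather than on p38 or JNK. It read 157, 162 and 130 FPKM in knockout libraries, against 61.9, 48.9 and 54.3 FPKM in control libraries. The knockout mean was 2.72 times the control mean (log2 change 1.42, SE 0.11; limma adjusted p = 1.1e-05; 1.78 after TMM scaling), and 98.8% of tested genes had a lower log2 change. As a ratio within each library, which no scaling between libraries can alter, Dusp1 stood at 1.01, 1.34 and 2.93 times Dusp5 in knockout libraries, against 15.3, 16.6 and 15.2 times in control libraries. Dusp5 made up 49.6%, 42.5% and 25.4% of the summed FPKM of these phosphatases in knockout libraries, against 6.08%, 5.66% and 6.17% in control libraries. The change of Dusp1 minus that of Dusp5 was -3.29 (SE 0.46) and the change of Dusp2 minus that of Dusp5 was -2.88 (SE 0.52), each at an exact permutation p = 0.10 and an adjusted p = 0.18. Dusp1 and Dusp2 differed by -0.40 (SE 0.64; exact permutation p = 0.60).

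**Figure D2:**
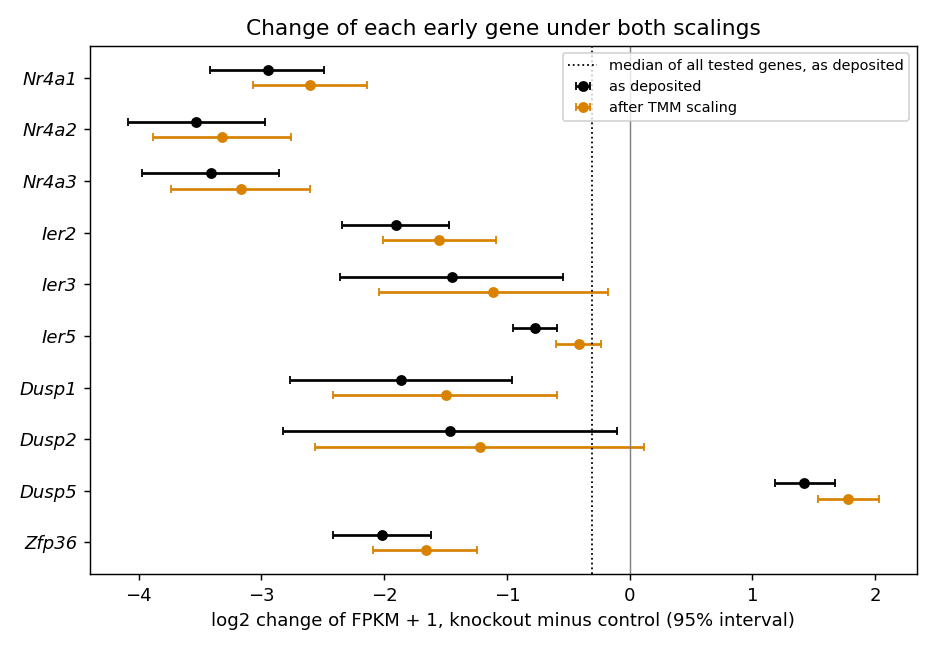
Log2 change of FPKM + 1 (knockout minus control) of the 10 genes, as deposited (black) and after TMM scaling (orange), with 95% intervals from limma and 3 libraries per group. The dotted line marks the median of all tested genes as deposited, -0.31. Nr4a1, Nr4a2 and Nr4a3 lie furthest left, Dusp5 is the gene right of 0, and the interval of Dusp2 after TMM scaling crosses 0.

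Dusp1 (Entrez 19252) spans 26505591 to 26508472 on chromosome 17, Dusp2 (Entrez 13537) spans 127336159 to 127338377 on chromosome 2 and Dusp5 (Entrez 240672) spans 53529145 to 53541809 on chromosome 19. The promoters of Dusp1 and Dusp5 are shown because these genes moved apart. Capitals mark TGACG on either strand and the CArG box, the serum response element core bound by SRF. Dusp1 is at chr17:26508473-26508722 on the minus strand and Dusp5 at chr19:53528895-53529144 on the plus strand.

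Dusp1: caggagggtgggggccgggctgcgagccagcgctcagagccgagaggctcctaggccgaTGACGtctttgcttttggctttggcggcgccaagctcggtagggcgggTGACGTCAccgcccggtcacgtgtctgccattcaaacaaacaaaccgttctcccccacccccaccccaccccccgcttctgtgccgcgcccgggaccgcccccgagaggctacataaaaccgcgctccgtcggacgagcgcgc

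Dusp5: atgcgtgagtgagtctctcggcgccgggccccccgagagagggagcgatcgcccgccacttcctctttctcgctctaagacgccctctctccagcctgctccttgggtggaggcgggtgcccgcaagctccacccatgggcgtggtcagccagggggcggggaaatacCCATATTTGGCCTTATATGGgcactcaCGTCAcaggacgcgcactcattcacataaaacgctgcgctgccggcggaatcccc

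Dusp1 holds the full palindromic CRE, TGACGTCA, at -143, which itself counts as an overlapping pair of TGACG copies, and another TGACG at -191. This palindrome occurs in 1.79% of all promoters and in no other of the 9. Dusp5 holds a pair of adjacent CArG boxes that begin at -82 and -72, and TGACG on the other strand at -55. A CArG box was found in 1.63% of all promoters and, among the 9, also in that of Zfp36. The AP-1 element TGANTCA was found in none of the 9 promoters and in 7.81% of all, and the EGR element GCGNGGGCG in 4 of the 9 (Nr4a1, Nr4a2, Dusp2 and Zfp36) and in 5.55% of all.

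Zfp36 (Entrez 22695, chromosome 7, 28376784 to 28379228) was the most abundant of the 10 genes after Dusp1 in controls. It read 121, 157 and 159 FPKM in knockout libraries, against 726, 569 and 498 FPKM in control libraries. The knockout mean was 24.4% of the control mean (log2 change -2.02, SE 0.17; limma adjusted p = 6.1e-05; -1.66 after TMM scaling). Its relative Zfp36l2, which encodes another protein of the family, averaged 307 ± 21.8 FPKM in knockouts and 310 ± 19.0 FPKM in controls (SD, n = 3 each). It was not called (log2 change -0.01), but was called higher after TMM scaling (0.34). Within each library Zfp36 stood at 0.412, 0.531 and 0.480 times Zfp36l2 in knockouts, against 2.22, 1.82 and 1.72 times in controls. Zfp36l1 fell (8.32 ± 0.826 FPKM in knockouts and 20.5 ± 2.05 FPKM in controls; log2 change -1.2), while Zfp36l3 and the IER relative Ier5l stayed under the level tested.

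TTP binds best to the heptamer whose DNA letters are TATTTAT. This heptamer was counted on the sense strand of the 3′ untranslated region of the GENCODE M21 transcript that matches each gene. Ier3 held 4 copies, Dusp1 and Zfp36 held 3 each, Nr4a3 held 2, Nr4a2 and Dusp2 held 1 each, and Nr4a1, Ier2, Ier5 and Dusp5 held none. At least 1 copy was found in 28.6% of the 10245 tested genes with an annotated region, and at least 3 in 3.61%. Genes with and without the heptamer were thus both among those that fell. The sites below show the heptamer in capitals for the genes with at least 3 copies, in windows of 30 bases at chr17:35822481-35822510 (plus strand), chr17:26506158-26506187 (minus strand) and chr7:28376965-28376994 (minus strand) in GRCm38.

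Ier3: tgtctaattaaTATTTATgTATTTATgtat

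Dusp1: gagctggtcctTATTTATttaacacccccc

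Zfp36: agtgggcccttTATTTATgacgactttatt

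The Ier3 window holds a pair of heptamers separated by a base.

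In knockouts the order of mean levels ran Dusp1, Dusp5, Zfp36, Ier5, Ier2, Nr4a1, Ier3, Dusp2, Nr4a3, Nr4a2, with overlapping ranges for Dusp1 and Dusp5, Dusp5 and Zfp36, and Nr4a1 and Ier3. In controls the order of mean levels ran Dusp1, Zfp36, Nr4a1, Ier2, Ier5, Dusp5, Ier3, Nr4a3, Nr4a2, Dusp2. The library ranges of Nr4a1 and Ier2, of Ier2 and Ier5, of Dusp5 and Ier3, of Nr4a3 and Nr4a2, and of Nr4a2 and Dusp2 overlapped. Dusp5 thus stood in place 2 in knockouts and in place 6 in controls, and Nr4a1 in place 6 in knockouts and in place 3 in controls.

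**Figure D3:**
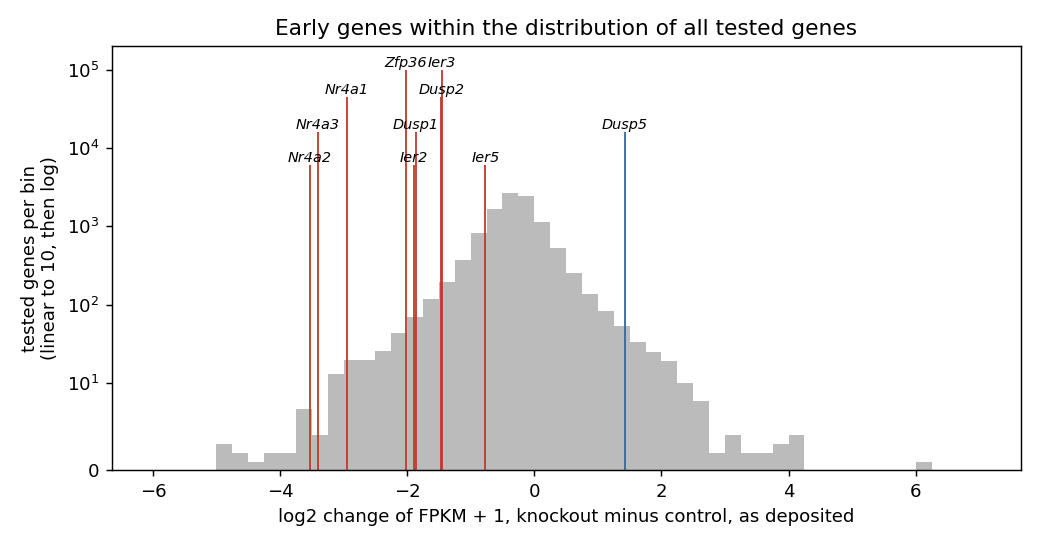
Number of tested genes per bin of 0.25 in log2 change (knockout minus control, as deposited; grey; vertical axis linear to 10 and logarithmic above), with the 10 early genes marked by lines (red lower, blue higher in knockouts). Line heights only separate the labels. Most genes lie just left of 0, around the median of -0.31, and Nr4a2, Nr4a3 and Nr4a1 stand in the left tail.

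The spread between libraries of a group was larger for these genes than for most. The coefficient of variation of the 10 genes had a median of 17.5% in knockouts and 21.9% in controls, beside 7.33% and 6.74% for all tested genes, and 8 of the 10 genes in knockouts and all 10 in controls exceeded the median of all tested genes in that group. Control library 1 held the highest value of all 3 controls for each of the 10 genes, whereas it was the highest control for 28.8% of tested genes. Control library 2 held the lowest value for Nr4a1, Nr4a2, Nr4a3, Ier5, Dusp1 and Dusp5, and control library 3 for Ier2, Ier3, Dusp2 and Zfp36. In knockouts, library 3 was highest for Ier3, Dusp1 and Zfp36, and library 2 for Nr4a1, Nr4a2, Nr4a3, Ier2, Dusp2 and Dusp5.

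Markers of several other lung cell types were also lower in knockouts. The summed FPKM of 6 epithelial markers, of which Scgb1a1 reached the highest value, was 20.8, 24.5 and 89.5 in knockout libraries, against 287, 151 and 94.6 in control libraries. Without Scgb1a1 it was 15.7, 19.8 and 33 in knockout libraries, against 124, 87.9 and 65 in control libraries. Of this list Sftpc, Sftpb, Sftpa1 and Epcam were lower in every knockout than in every control, while Scgb1a1 and Foxj1 overlapped. Epcam read 0.15, 0.03 and 0.03 FPKM in knockout libraries, against 18.9, 18.3 and 14.7 FPKM in control libraries. Foxj1 stayed under 1 FPKM in every library. The sum of 6 endothelial and fibroblast markers was 5.23, 5.95 and 11.5 in knockout libraries, against 40.8, 27.2 and 16.9 in control libraries. Within it the endothelial Pecam1, Cdh5 and Cldn5 were lower in every knockout than in every control, while the fibroblast Col1a1, Col1a2 and Col3a1 overlapped. Col1a1 read 0.53, 0.84 and 2.35 FPKM in knockout libraries, against 3.94, 3.27 and 1.54 FPKM in control libraries. Cldn5 read 0.95, 0.85 and 0.85 FPKM in knockout libraries. The sum of 4 B cell markers was 5.18 to 6.41 in knockouts and 14.2 to 28.4 in controls, and that of 5 T and NK cell markers was 1.11 to 1.93 in knockouts and 4.67 to 8.92 in controls. The sum of 6 neutrophil markers was 32.1 to 52.7 in knockouts and 62.1 to 77 in controls, but without Csf3r it was 28.3 to 47.1 in knockouts and 26.5 to 37 in controls, so the difference lay in Csf3r (3.81 to 5.62 FPKM in knockouts and 25.2 to 50.5 FPKM in controls). No marker was at 0 in all libraries, and the neutrophil marker Ly6g did not exceed 0.06 FPKM. The sum of 6 dendritic cell markers was 4.30 to 7.81 in knockouts and 4.53 to 13.0 in controls, and within it Flt3, Cd209a, Xcr1 and Ccr7 were lower in every knockout than in every control, while Clec9a was higher (2.8 to 6.09 FPKM in knockouts and 0.92 to 1.82 FPKM in controls). Without Clec9a the sum was 1.43 to 1.72 in knockouts and 3.61 to 11.2 in controls. The sum of 6 monocyte and interstitial macrophage markers was 5.18 to 6.84 in knockouts and 5 to 6.06 in controls, with Ly6c2, Ccr2 and Cx3cr1 lower and C1qa, C1qb and C1qc higher in every knockout than in every control. Ier2, Ier3, Dusp2 and Zfp36 were highest in control library 1 and lowest in control library 3 among controls, as were the sums of all these lists other than the neutrophil list, and 18.6% of tested genes. Ier3, Dusp1 and Zfp36 were lowest in library 1 and highest in library 3 among knockouts, as were the epithelial, endothelial and fibroblast, T and NK cell, and monocyte and interstitial macrophage sums and 16.0% of tested genes. Among controls the NR4A genes, Ier5, Dusp1 and Dusp5 had another order, with their highest value in library 1 and their lowest in library 2. This order was shared by 10.05% of tested genes. Dusp1 thus followed the epithelial and the endothelial and fibroblast sums in its order among knockouts, but not among controls. The part of the other cell types in the falls was not tested.

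**Figure D4:**
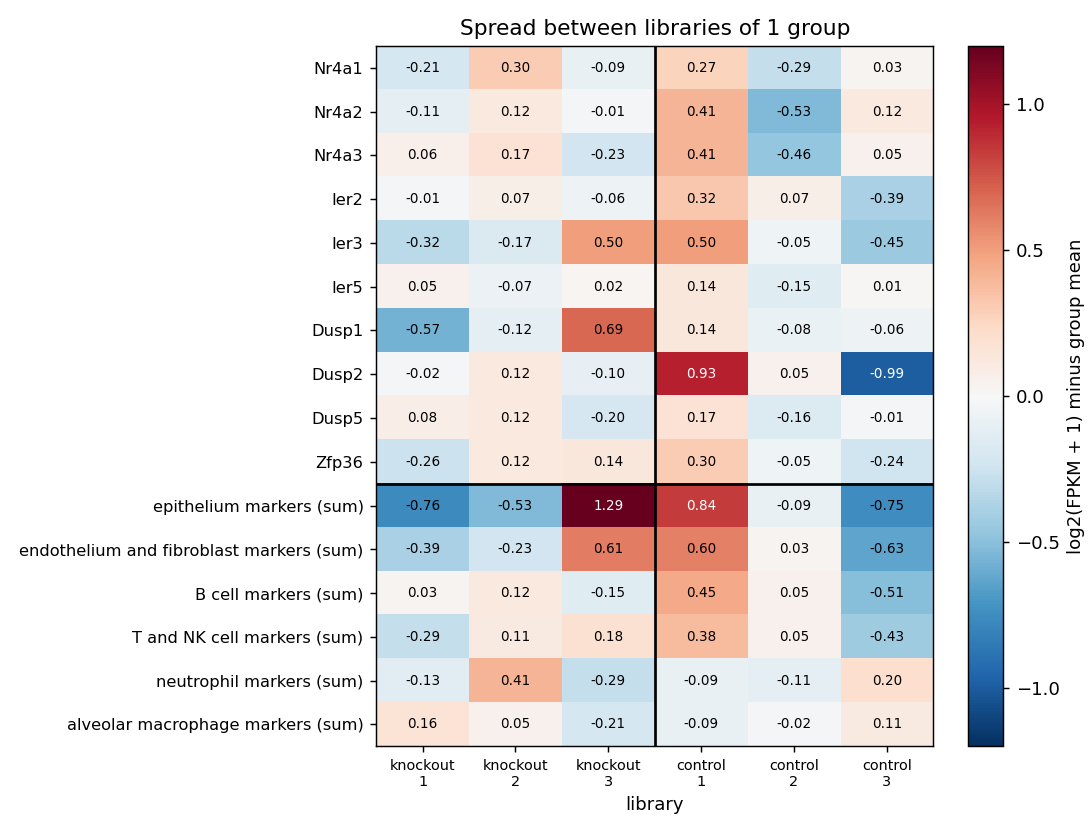
Deviation of log2(FPKM + 1) from the mean of its group, for each library (columns, knockouts left and controls right), for the 10 early genes and for the summed FPKM of 6 marker lists (rows). Red is above and blue below the group mean. In control library 1 all 10 genes are above their group mean, as are the epithelial (0.84) and the endothelial and fibroblast sums (0.60), and in knockout library 3 Dusp1 (0.69), Ier3 (0.50), the epithelial sum (1.29) and the endothelial and fibroblast sum (0.61) are the high values.

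Other immediate-early transcription factors were lower as well. Of 20 listed genes 19 were tested, of which 17 were lower, 0 higher and 2 not called, with a median log2 change of -1.42. After TMM scaling 16 were lower and 1 was higher. The genes called lower were 89.5% of those tested as deposited, beside 58.8% of all tested genes. The TMM shares were 84.2% lower and 5.26% higher, beside 27.4% and 28.5% of all tested genes. Egr1, a zinc finger factor, averaged 4.8 ± 0.986 FPKM in knockouts and 94.9 ± 34.4 FPKM in controls (log2 change -3.99, -3.66 after TMM scaling). The AP-1 subunits Jun and Fosb fell as well, Jun to 22.4 ± 0.933 FPKM in knockouts, against 198 ± 86.9 FPKM in controls (log2 change -3.0), and Fosb to 44.3 ± 13.5 FPKM in knockouts, against 254 ± 32.8 FPKM in controls (log2 change -2.53). The stress-induced repressor Atf3 fell to 19.9 ± 2.84 FPKM in knockouts, against 108 ± 20.5 FPKM in controls (log2 change -2.37). The factors not called were Klf2 (log2 change -0.13) and Klf10 (log2 change -0.07, 0.28 and called higher after TMM scaling).

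Among the other MAP kinase phosphatases, 5 of 7 were tested, of which 4 were lower and 0 higher, with a median log2 change of -0.75. After TMM scaling 3 were lower and 1 was higher. With only 5 genes tested, the shares were 80% lower and 0% higher, beside 58.8% and 11.0% of all tested genes. After TMM scaling they were 60% lower and 20% higher, beside 27.4% and 28.5% of all tested genes. Dusp6, a cytoplasmic ERK phosphatase, had the largest of these falls, to 24.0 ± 1.54 FPKM in knockouts, against 64.9 ± 4.89 FPKM in controls (log2 change -1.40, -1.05 after TMM scaling). Dusp9, Dusp10 and Dusp16 fell less (log2 changes -0.77, -0.59 and -0.75 as deposited), and Dusp16 was not called after TMM scaling (-0.43). Dusp7 was not called as deposited (log2 change 0.32) and was called higher after TMM scaling (0.64). Of the 7 Sprouty and SPRED adaptors, which restrain signalling from Ras to ERK, 3 were tested, of which 1 was lower and 1 higher. After TMM scaling 1 was lower and 2 were higher. As shares of only 3 genes these are 33.3% each as deposited, beside the same background. After TMM scaling they are 33.3% lower and 66.7% higher. Spry1 fell to 1.71 ± 0.0874 FPKM in knockouts, against 9.64 ± 1.45 FPKM in controls (log2 change -1.96). Spred2 rose to 3.09 ± 0.650 FPKM in knockouts, against 1.90 ± 0.0751 FPKM in controls (log2 change 0.48).

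The kinases and factors upstream of these genes had a median change closer to that of all tested genes. Of 24 tested, 20 were lower and 1 was higher, with a median log2 change of -0.45, beside -0.31 for all tested genes. The shares were 83.3% lower and 4.17% higher, beside 58.8% and 11.0% of all tested genes. After TMM scaling 6 were lower, 4 higher and 14 not called. At 25% lower and 16.7% higher, the TMM shares were not above the 27.4% and 28.5% of all tested genes. The largest falls were those of Crem, a CREB family gene with an inducible repressor form (2.30 ± 0.246 FPKM in knockouts and 10.8 ± 2.17 FPKM in controls; log2 change -1.83), Rps6ka5, which encodes the kinase MSK1 (2.44 ± 0.347 FPKM in knockouts and 9.25 ± 0.227 FPKM in controls; log2 change -1.58), the ETS factor Elk3 (log2 change -1.49) and the ERK-activated kinase gene Rps6ka1 (log2 change -0.97). These 4 were lower after TMM scaling too. Mapkapk2, the gene of a p38-activated kinase that phosphorylates TTP, was the gene called higher as deposited (79.5 ± 9.52 FPKM in knockouts and 56.8 ± 6.07 FPKM in controls; log2 change 0.48). Mapkapk2, Zfp36l2, Klf2, Klf10 and Dusp7 are named because of their values.

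Among transcripts with AU-rich elements known to be bound by TTP, 13 were tested, of which 7 were lower, 2 higher and 4 not called. These are 53.8% lower and 15.4% higher, near the 58.8% and 11.0% of all tested genes. The list had a median log2 change of -1.07, and after TMM scaling 7 were lower and 3 higher, beside 27.4% and 28.5% of all tested genes. The chemokine Cxcl2 averaged 13.2 ± 3.82 FPKM in knockouts and 353 ± 130.1 FPKM in controls (log2 change -4.61). Cxcl1, another neutrophil attractant, averaged 0.863 ± 0.228 FPKM in knockouts and 11.0 ± 6.94 FPKM in controls (log2 change -2.53). The cytokine gene Il6 was listed at 0, 0.14 and 0.05 FPKM in knockout libraries, against 6.46, 3.34 and 2.09 FPKM in control libraries (log2 change -2.13). Both changes depend on the added 1 FPKM. With 0.1 FPKM added they were -3.36 for Cxcl1 and -4.58 for Il6. The monocyte attractant Ccl2 rose, to 41.6 ± 8.11 FPKM in knockouts, against 9.35 ± 2.96 FPKM in controls (log2 change 2.07). Heat-shock genes were listed as a contrast, and only some of them answer to protein damage. Of 12 tested, 1 was lower (Dnajb1, log2 change -0.78) and 11 were not called, with a median log2 change of -0.32. After TMM scaling 1 was lower and 3 were higher. The heat-shock share was 8.33% lower as deposited, beside 58.8% of all tested genes. After TMM scaling it was 8.33% lower and 25% higher, beside 27.4% and 28.5%.

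**Figure D5:**
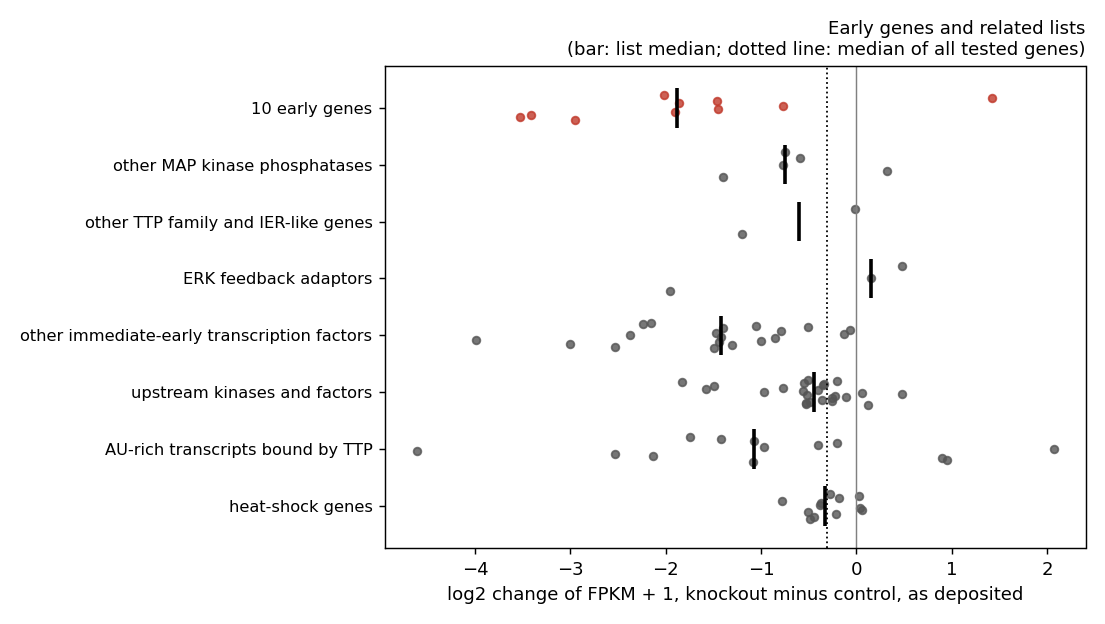
Log2 change (knockout minus control, as deposited) of every tested gene in the 10 early genes (red) and in 7 related lists (grey), 1 point per gene. Thick bars are list medians and the dotted line is the median of all tested genes, -0.31. The early genes and the other immediate-early transcription factors lie left of the dotted line for the most part, while the heat-shock genes straddle it.

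Likeness of pattern was measured over the 6 libraries as the root mean square difference of log2(FPKM + 1) profiles, each centred on its own mean, so that a smaller value means a closer match. For Nr4a1 the closest tested genes outside the 10 were Rasgef1b (0.13), 4930523C07Rik (0.20) and the ribonuclease gene Rnase4 (0.22), and Nr4a3 was the nearest of the 10 (0.28). Ier2 was closest to the chemokine Ccl5 (0.08), Tpbgl (0.10) and the vitamin D receptor Vdr (0.10). Zfp36 was closest to the pseudokinase gene Trib1 (0.08), Klf9 (0.10) and the bZIP factor Nfil3 (0.12). Dusp1 had no match as close, with the histone gene Hist1h4m (0.16), Mir1907 (0.21) and the lipopolysaccharide co-receptor Cd14 (0.24) nearest. Ier2 and Zfp36 were the nearest of the 10 to each other (0.16). Mir1907, Tpbgl and 4930523C07Rik were under 1 FPKM in every knockout library, where the added 1 FPKM shapes the profile. With 0.1 FPKM added, the log2 change was -3.95 for Mir1907, beside -1.87 for Dusp1. It was -3.38 for Tpbgl, beside -1.93 for Ier2, and -3.72 for 4930523C07Rik, beside -3.01 for Nr4a1. The closeness of these 3 genes thus depends on the added value. That of some other matches depends on it to a smaller degree. With 0.1 FPKM added, Klf9 was at -2.53, beside -2.03 for Zfp36. Ccl5 was at -2.29, beside -1.93 for Ier2, and Hist1h4m at -2.21, beside -1.87 for Dusp1. Trib1 (-2.07) stayed near Zfp36, and Rnase4 (-3.04) near Nr4a1. All likeness values rest on the same 6 libraries and on the shared difference between groups.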

How the data were processed

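RNA of sorted alveolar macrophages was sequenced in 3 knockout and 3 control libraries. Trizol extraction and a BGI library protocol were used, per the labels' protocols. Bowtie2 and RSEM are named as tools and mm10 as the build, per the submitters' processing notes, with no version, filter or strand setting named. FPKM per gene and library were deposited by the authors, per the file headers, so the read depth is unknown and no counting interval is given.

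The test was limma 3.58.1 (R 4.3.3) on log2(FPKM + 1) (trended and robust variance, two-sided, genotype as the only term) in the 10847 genes averaging 1 FPKM or more over all libraries, with Benjamini-Hochberg adjustment over all of them. The script was checked on simulated data. FPKM are relative to a library's total, so results are also given after TMM scaling (30% of log ratios and 5% of levels trimmed, unweighted, computed here from the FPKM), which divided knockouts by 0.877 to 0.888 and controls by 1.12 to 1.14. The plan also named 0.1 FPKM as pseudocount, no filter, a variance without trend, leaving out each library and a replicate block. Differences between paralogs were tested with exact permutations (scipy 1.17.1). Named genes were the 10 members, Hdac3, up to 4 called genes per list with the largest change and no overlap, and the 3 closest profiles to Nr4a1, Ier2, Dusp1 and Zfp36. Members and lists were chosen with earlier results of these data known. Promoters come from RefSeq (GRCm38.p6) and 3′ untranslated regions from GENCODE M21 (GRCm38).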

Additional observations from a re-analysis of the deposited data

How the results depend on the processing

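Of the 10 genes, 7 to 9 were lower and 1 was higher under every alternative run, and no gene changed direction. Nr4a1, Nr4a2, Nr4a3, Ier2, Ier5, Dusp1, Dusp5 and Zfp36 kept their calls in all of them, while Ier3 lost its call in 4 and Dusp2 gained it in 4 of 11. TMM scaling moved the counts over all tested genes to 3091 higher and 2970 lower. It also gave 2 higher ERK adaptors, 3 higher heat-shock genes, 1 higher gene each among the other phosphatases, the TTP family and the early factors, and 4 higher and 6 lower upstream genes. Leaving out 1 library at a time gave 0 to 1 higher phosphatases and 1 to 3 lower heat-shock genes, 3 without knockout replicate 3. Testing without a filter on low values gave 2 lower genes in the TTP family list. The difference of Dusp1 minus Dusp2 was 0.09 with 0.1 FPKM added, where -0.40 is reported, and ranged from -0.80 to 0.06 over the libraries left out, turning without control replicate 3. The cause of these moves was not tested. No pairing by replicate number was visible. Same-numbered libraries deviated from their group means with correlations of -0.105, -0.056 and -0.086, which cannot show that the libraries were unpaired. With the replicate block 7 of the 10 genes were lower and 1 was higher, Ier3 was not called (adjusted p = 0.094), 2 heat-shock genes were lower and 1 other phosphatase was higher, and over all tested genes 6193 were lower and 1180 higher. With 3 libraries a group no exact permutation p can go below 0.10.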
